A study of Homo sapiens with 19 samples.

Results

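The 10 genes described here encode inflammatory cytokines and chemokines. They are IL6, IL11 and LIF of the interleukin-6 family, IL24, the interleukin-1 genes IL1A and IL1B, the CXC chemokine genes CXCL8, CXCL1 and CXCL2, and the CC chemokine gene CCL2. The genes were chosen as a list and matched by symbol, CXCL8 also by its older name IL8, to 10 of the 44717 Ensembl gene identifiers listed for any library. Each was listed for all 19 libraries. RNA-seq was performed on 2 human pigment cell lines, 501Mel melanoma cells and untransformed Hermes 3A melanocytes. Cells were infected with lentiviral vectors expressing a short hairpin RNA (shRNA) against BRG1, the ATPase of SWI/SNF-type chromatin remodelling complexes encoded by SMARCA4, or against MITF, the transcription factor of the melanocyte lineage, or with a scramble vector. The question was how each gene was expressed in the lines and how it changed on BRG1 or MITF silencing.

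501Mel cells formed 4 groups. There were 3 replicates of shSCR1 (scramble), 3 of shBRG1, 2 of shSCR2 (scramble) and 2 of shMITF. Hermes 3A cells formed 3 groups of 3 replicates, with shSCR (scramble), shBRG1 and shMITF. All groups, controls included, carried a lentiviral vector. A single shRNA construct was used against BRG1 and a single one against MITF, so that an effect of the construct and an effect of losing its target cannot be told apart. The labels do not say how shSCR1 and shSCR2 differ. The Hermes 3A medium contained a phorbol ester (TPA), cholera toxin, stem cell factor and endothelin-1, which the 501Mel medium did not, so that differences between the lines include the medium. The labels number the replicates without saying whether they came from separate infections. The p-values therefore measure the spread between these samples, which may be technical.

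IL-6, IL-11 and LIF signal through receptor complexes that share the gp130 chain encoded by IL6ST, and activate JAK kinases and STAT3. CXCL8, CXCL1 and CXCL2 attract neutrophils through CXCR1 and CXCR2, CCL2 attracts monocytes through CCR2, and IL-24 belongs to the interleukin-10 family. Many of these genes are induced by NF-κB, AP-1 and C/EBP factors, and several are known components of the senescence-associated secretory phenotype (SASP), the set of secreted factors released by senescent cells. In melanocytes and melanoma cells IL-6 and CXCL8 are known autocrine and paracrine factors.

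The region upstream of the start is shown for the 6 genes on which the results mainly turn, since members with shared motifs can be compared directly. The sequences are the 160 bases before the RefSeq start, read 5′ to 3′ on the gene's strand in build GRCh38.p14. They lie at chr7:22727040-22727199 on the plus strand for IL6, chr4:73740409-73740568 on the plus strand for CXCL8, chr4:73869233-73869392 on the plus strand for CXCL1, chr4:74099196-74099355 on the minus strand for CXCL2, chr19:55370464-55370623 on the minus strand for IL11 and chr1:206897283-206897442 on the plus strand for IL24. Capitals mark motif matches on either strand. The NF-κB-type motif was searched as GGNNNTTCC. The AP-1-type motif was searched as TGANTCA and the C/EBP-type motif as TTGCNNAA. The TATA box was searched as TATAAA.
IL6: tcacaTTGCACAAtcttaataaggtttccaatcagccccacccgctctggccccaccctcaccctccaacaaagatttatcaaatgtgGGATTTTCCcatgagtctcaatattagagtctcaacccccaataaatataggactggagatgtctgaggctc
CXCL8: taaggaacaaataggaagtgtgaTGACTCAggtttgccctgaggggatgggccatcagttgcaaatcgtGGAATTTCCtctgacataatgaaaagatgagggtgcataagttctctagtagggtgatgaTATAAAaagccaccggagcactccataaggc
CXCL1: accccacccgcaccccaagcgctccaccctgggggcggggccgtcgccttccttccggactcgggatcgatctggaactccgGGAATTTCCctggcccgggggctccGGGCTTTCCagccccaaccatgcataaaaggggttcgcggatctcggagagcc
CXCL2: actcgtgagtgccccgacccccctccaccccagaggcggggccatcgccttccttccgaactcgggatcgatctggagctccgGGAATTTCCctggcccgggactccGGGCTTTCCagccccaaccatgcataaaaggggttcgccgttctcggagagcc
IL11: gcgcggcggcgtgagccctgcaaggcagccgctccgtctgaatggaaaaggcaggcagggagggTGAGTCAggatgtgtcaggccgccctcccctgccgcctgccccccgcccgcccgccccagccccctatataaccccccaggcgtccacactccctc
IL24: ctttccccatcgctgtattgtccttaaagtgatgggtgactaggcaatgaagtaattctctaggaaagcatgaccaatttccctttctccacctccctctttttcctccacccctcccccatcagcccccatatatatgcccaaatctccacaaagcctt

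RefSeq promoter sequences were matched for 8 of the 10 genes. LIF and CCL2 had no entry. In the 250 bases before the start, searched on both strands, the NF-κB-type match was present in 4 of the 8, IL6, CXCL8, CXCL1 and CXCL2. It was present in 17.1% of all 35116 promoters of the same length. CXCL1 and CXCL2, paralogs of the same cluster, each had 2 such matches, at 78 and 53 bases before the start in CXCL1 and at 77 and 53 in CXCL2. The AP-1-type match was present in CXCL8, IL1A and IL11 against 6.57% of promoters, the C/EBP-type match in IL6, IL1B and CXCL2 against 9.05%, and TATAAA in CXCL8 and IL1A against 10.7%. Neither CACGTG, an E-box that MITF can bind (6.34% of promoters), nor CATGTG (9.42%) was found in these windows. IL24 held no match to any of the 6 motifs.

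**Figure D1:**
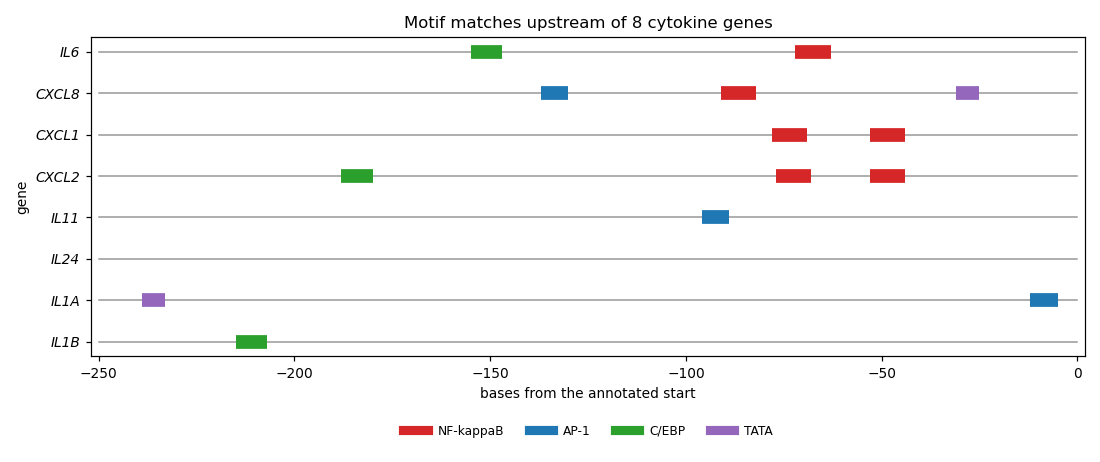
Positions of motif matches in the 250 bases before the RefSeq start of 8 cytokine genes (x axis, bases from the start; coloured blocks, matches to each motif on either strand; for IL1A the first of 2 annotated starts). NF-κB-type matches lie within 91 bases of the start in IL6, CXCL8, CXCL1 and CXCL2.

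The genes lie on several chromosomes (GENCODE 29, GRCh38). IL6 (ENSG00000136244) spans 22725884 to 22732002 on chromosome 7. CXCL8 (ENSG00000169429, 73740506 to 73743716), CXCL1 (ENSG00000163739, 73869393 to 73871242) and CXCL2 (ENSG00000081041, 74097035 to 74099293) lie in the CXC cluster of chromosome 4. IL1A (ENSG00000115008, 112773915 to 112784590) and IL1B (ENSG00000125538, 112829751 to 112836903) are neighbours on chromosome 2. IL11 (ENSG00000095752) is on chromosome 19 at 55364389 to 55370463, IL24 (ENSG00000162892) on chromosome 1 at 206897443 to 206904139, LIF (ENSG00000128342) on chromosome 22 at 30240447 to 30246851 and CCL2 (ENSG00000108691) on chromosome 17 at 34255218 to 34257203. Exons of IL6 overlap those of STEAP1B on the other strand, and exons of LIF overlap the antisense gene LIF-AS1. Whether counting used strand is not given in the sources used here, so that reads from these pairs may be mixed. CXCL1 and CXCL2 share sequence, with 5.73% and 9.24% of their 50-base transcript windows found in another gene of the cluster, and small counts of one beside large counts of the other are uncertain.

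Between 29158502 and 78857900 reads per library were counted on genes. Levels are given as CPM, read counts scaled to a common library total, on one scale for the 19 libraries, normalized by the trimmed mean of M-values (TMM). Fold changes are log2 values from edgeR's quasi-likelihood test, fitted for each comparison on all genes with its own normalization. To be called higher or lower, a gene needed an absolute log2 fold change above 1 together with an adjusted p (Benjamini-Hochberg) below 0.05. Genes with few counts in 1 group passed the filter on low counts through the other group. Such genes could be called in 1 direction only. SMARCA4, the targeted gene, fell with shBRG1 by 2.36 in 501Mel cells (177.9, 193 and 186 CPM in shSCR1; 37.4, 40.6 and 35.8 in shBRG1) and by 2.38 in Hermes 3A cells (244, 254 and 227 CPM in shSCR; 44.4, 46.2 and 47.5 in shBRG1). MITF fell by 1.06 with shMITF in 501Mel cells (1048 and 1186 CPM in shSCR2; 494 and 546 in shMITF). The shSCR1 libraries, at 513, 604 and 609 CPM of MITF, overlapped those of shMITF, and against them the change was −0.12 ± 0.0965 (adjusted p = 0.284, edgeR quasi-likelihood test), so that the fall in the targeted gene rests on shSCR2 as control. Its change with shMITF in Hermes 3A cells was −0.85 ± 0.191 (SE, adjusted p = 0.0194, edgeR quasi-likelihood test; 1014, 1031 and 1119 CPM in shSCR; 456, 719 and 544 in shMITF), and it is short of the threshold on size. MITF also fell by 1.55 with shBRG1 in 501Mel cells, and by 2.52 against shSCR2. The biological coefficient of variation was 4.59% to 6.00% in shSCR1, shBRG1 and the Hermes 3A shSCR and shBRG1 groups, 16.9% and 18.1% in shSCR2 and shMITF of 501Mel cells, and 33.2% in Hermes 3A shMITF.

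The labelled cell type was checked against 7 melanocyte lineage markers, all of them detected in every group, with summed levels of 29330 to 31534 CPM in shSCR1 and 63352 to 64546 CPM in Hermes 3A shSCR. All 7 fell in 501Mel shBRG1, to a sum of 3112 to 3407 CPM. The sum was also lower in the other knockdowns. In 501Mel cells it was 20747 to 23263 CPM in shSCR2 and 11375 to 11789 CPM in shMITF, with 2 of 7 called lower (3.4% of all genes). In Hermes 3A cells it was 30248 to 31888 CPM in shBRG1 and 25934 to 34015 CPM in shMITF. There 2 and 3 of 7 were called lower, beside 3.47% and 4.04% of all genes. PTPRC, the pan-leukocyte marker, had no counts in shSCR1 and at most 0.0599 CPM on average in any group, and the sum of 7 leukocyte markers ranged from 0.658 to 9.44 CPM, highest in 501Mel shBRG1, where LYZ and CSF1R were called higher and CD68 lower. In bulk samples, fewer cells of a type and less RNA per cell cannot be told apart.

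The lines differed in their cytokine profile before silencing. Per kilobase of exon, IL24 was the highest of the 10 in 501Mel shSCR1 (6.70 CPM per kilobase on average), followed by CXCL8 (3.92) and IL11 (3.30), whose libraries overlapped, and CCL2 (1.8). In Hermes 3A shSCR, CXCL1 was the highest (193 CPM per kilobase), ahead of IL24 (30.7), CXCL8 (20.9), LIF (1.78) and IL6 (0.848), with no overlap between neighbours in this order. After shBRG1 the Hermes 3A order was CXCL1 (336), CXCL8 (45.6), IL6 (29.9) and IL24 (24.2), again without overlap between neighbours. In 501Mel shMITF, CCL2 was the highest (4.35), and in shSCR2 no member had a mean above 0.364 CPM per kilobase, with the first 6 in the order each overlapping the next except CXCL1 and IL11.

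**Figure D2:**
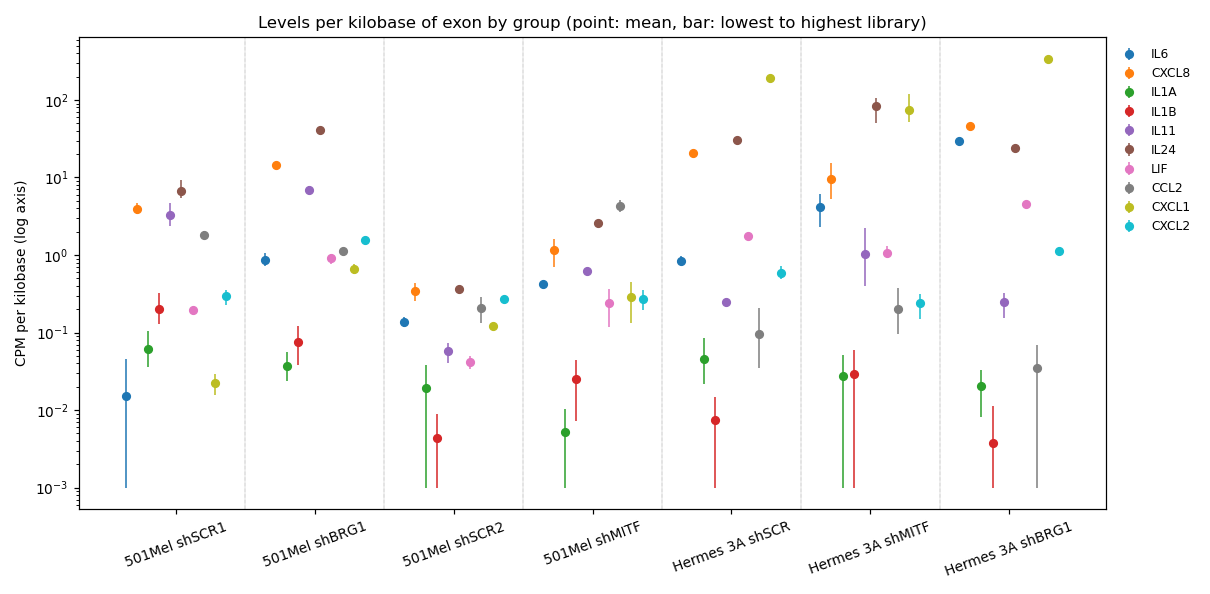
Levels per kilobase of exon (y axis, CPM per kilobase, log axis) of the 10 genes in the 7 groups; points are group means and bars run from the lowest to the highest library, ending near the foot of the axis where a library had no count. CXCL1 is highest in Hermes 3A shSCR (193) and shBRG1 (336), IL24 in 501Mel shSCR1 (6.70).

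In the direct comparison of 501Mel shSCR1 with Hermes 3A shSCR, 5 of 9 members tested were lower and 3 were higher in 501Mel cells. Among all 18731 genes tested, 18.2% were lower and 23.1% higher. The lower ones were CXCL1, IL6, LIF, CXCL8 and IL24, and the higher ones IL1B, CCL2 and IL11. CXCL1 had 1, 2 and 1 counts in the shSCR1 libraries and 10534, 8602 and 11249 in the Hermes 3A shSCR libraries. Its pooled counts, scaled by TMM-normalized library size, were 0.000118 of the Hermes 3A level in shSCR1 (exact 95% interval 3.22e-05 to 0.000302, counting error only). IL11 was higher in shSCR1 by 3.77 ± 0.318 on the log2 scale, with 12.6, 7.58 and 6.23 CPM against 0.616, 0.705 and 0.639. With shSCR2 in place of shSCR1 the IL11 difference turned to −2.22, and CCL2, higher by 4.34 ± 0.312 against shSCR1, differed by 1.29 (adjusted p = 0.109, edgeR quasi-likelihood test).

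The choice of scramble group carried weight in 501Mel cells because the controls themselves differed. Of 8 members tested, shSCR2 was lower than shSCR1 in 6 and higher in 1, against 20.7% and 12.3% of all 19056 genes. The log2 fold change was −5.98 for IL11, −4.84 for IL1B, −4.19 for IL24, −3.41 for CXCL8, −2.95 for CCL2 and −2.28 for LIF. IL6 was higher by 2.83 ± 0.831, and did not pass the filter on low counts without shSCR1 replicate 1 or 2. shSCR1 and shBRG1 on the one hand and shSCR2 and shMITF on the other also listed different numbers of genes, 42224 and 41467. The scramble vector and any other difference between these groups cannot be told apart. Each 501Mel result for the 10 genes is therefore given against its own scramble control, and its value against the other control is given where it changed the call, the direction or the size by over 1.5 times. For the gene lists the counts against the other control stand beside the first ones.

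BRG1 silencing in 501Mel cells raised most of the genes measured. Of 9 members tested, 6 were called higher, IL6, CXCL1, IL24, CXCL2, LIF and CXCL8, against 21.7% of all 20514 genes tested. IL1B was called lower, against 17.4% of all genes. The median log2 fold change of the 9 was 2.17, and that of all genes 0.05. IL1A did not pass the filter on low counts. IL6 and CXCL1, with 0 to 5 and 1 to 2 counts per shSCR1 library, passed it only through the shBRG1 libraries. Both could only be called higher, and they count in the 6 and in the median. Other measures of the libraries moved with this comparison. The share of counts on mitochondrial genes was 6.81% to 7.62% in shSCR1 and 10.4% to 11.4% in shBRG1, and 28419 to 29711 genes had counts in the shSCR1 libraries against 32949 to 33772 in shBRG1. Their part in the result was not tested.

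BRG1 silencing in Hermes 3A cells raised fewer of them. Of 7 members tested, 3 were called higher, IL6, LIF and CXCL8, against 5.78% of all 17222 genes, and 0 were called lower by edgeR and by DESeq2, against 3.47%. With no threshold on size, the edgeR quasi-likelihood test placed 5 higher and 1, IL24, lower, against 28.2% and 28.6% of all genes, and the same 1 was lower at an unadjusted p under 0.05. The median of the 7 was 0.94 and that of all genes 0.01. IL1A, IL1B and CCL2 did not pass the filter on low counts.

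MITF silencing in 501Mel cells raised 6 of 7 members tested against shSCR2, CCL2, IL11, IL24, LIF, CXCL8 and IL6, where 5.59% of all 17701 genes were called higher. None of the 7 was called lower, against 3.4% of genes, and the DESeq2 test also gave 0. No member was below shSCR2 at an unadjusted p under 0.05 in the edgeR test. Against shSCR1 in place of shSCR2, 2 were called higher, IL6 and CCL2, and 4 lower, CXCL8, IL11, IL24 and IL1B, the last tested against shSCR1 but not against shSCR2. Of all 19179 genes tested against shSCR1, 12.2% were called higher and 17.6% lower. The median was 2.59 against shSCR2, and that of all genes 0.01. IL11 and LIF, with 6 to 10 counts per shSCR2 library, passed the filter there only through the shMITF libraries. Both could only be called higher, and they count in the 6 and in the median.

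MITF silencing in Hermes 3A cells moved the genes in both directions. Of 7 members tested, IL6 and IL24 were called higher, against 3.35% of all 16508 genes, and CXCL1 was called lower, against 4.04%. The median of the 7 was −0.70 and that of all genes 0.05. The shMITF libraries of Hermes 3A listed 34033 genes and the shSCR libraries 42224, and their spread was the widest of the series. A difference in how the libraries were processed and the knockdown cannot be told apart.

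**Figure D3:**
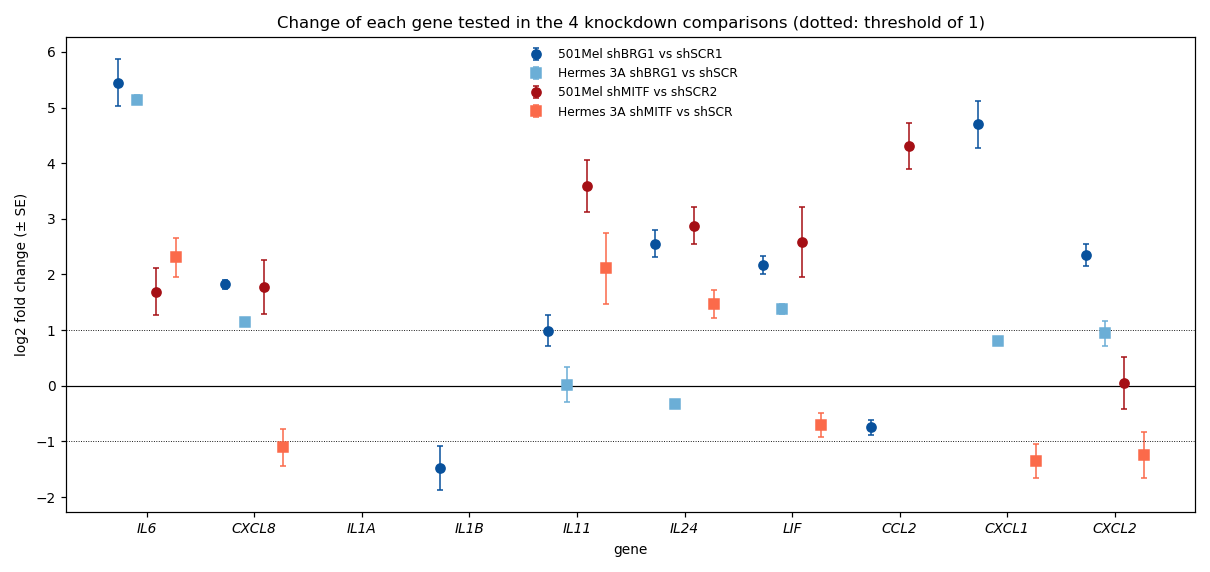
Log2 fold change ± SE (y axis) of the cytokine genes that passed the filter on low counts in the 4 knockdown comparisons (x axis, genes; circles, 501Mel; squares, Hermes 3A; blue, shBRG1; red, shMITF; dotted lines, threshold of 1). IL6 was called higher by edgeR in all 4 comparisons, while CXCL8, CXCL1, CXCL2 and LIF lie above 0 with shBRG1 and below 0 with shMITF in Hermes 3A cells.

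IL6, the founding cytokine of the gp130 family, was called higher by edgeR in each of the 4 comparisons, and by DESeq2 in each but 501Mel shMITF. In 501Mel shSCR1 it was nearly silent, with 0, 0.095 and 0 CPM, or 0, 5 and 0 counts. In shBRG1 it stood at 1.66, 2.21 and 1.5 CPM. Every shBRG1 library was above every control library, and the log2 fold change was 5.45 ± 0.427 (SE, adjusted p = 3.8e-11, edgeR quasi-likelihood test). Since the control rests on 5 counts in replicate 2, the size is poorly fixed. The ratio of pooled counts was 48.9 (exact 95% interval 20.7 to 152), and the log2 fold change was 2.63 against shSCR2. Without shSCR1 replicate 2 the controls held 0 counts, and no fold is given. In shMITF, IL6 was at 0.926 and 0.832 CPM against 0.327 and 0.245 in shSCR2, an increase of 1.69 ± 0.422 (adjusted p = 0.0221, edgeR quasi-likelihood test). It was 4.51 against shSCR1. The call against shSCR2 was lost without shSCR2 replicate 2 (adjusted p = 0.149, edgeR quasi-likelihood test) or without shMITF replicate 2 (0.0545), and DESeq2 did not make it (1.67, adjusted p = 0.0793).

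In Hermes 3A cells IL6 stood at 1.99, 1.59 and 1.69 CPM in shSCR and at 61.2, 61.9 and 62.4 CPM in shBRG1. The groups lay far apart, with a log2 fold change of 5.14 ± 0.0838 (adjusted p = 8.3e-27, edgeR quasi-likelihood test) and a ratio of pooled counts of 35.0 (exact 95% interval 30.6 to 40.2). In shMITF it was at 8.19, 4.82 and 12.7 CPM, higher by 2.31 ± 0.351 (adjusted p = 0.00457, same test). All shMITF libraries were above all shSCR libraries and below all shBRG1 libraries, and shBRG1 exceeded shMITF by 2.84 ± 0.311 (adjusted p = 0.00236, edgeR quasi-likelihood test).

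IL11, another gp130 cytokine with roles in stromal and bone cells, had its highest levels in 501Mel shBRG1 and shSCR1. It was measured at 12.6, 7.58 and 6.23 CPM in shSCR1 and at 17.7, 21.0 and 17.2 CPM in shBRG1, without overlap. The change of 0.99 ± 0.278 (adjusted p = 0.024, edgeR quasi-likelihood test) was short of the threshold on size. It was called higher without shSCR1 replicate 1 (1.32), the highest control, with library sizes in place of TMM (1.34), with DESeq2 (1.01), under the stricter filter of 10 counts per sample, with the replicate block (1.03) and with all 501Mel groups in 1 fit (1.01), and reached 6.99 against shSCR2. IL11 rose by 3.59 ± 0.471 with shMITF against shSCR2 (1.54 and 1.78 CPM against 0.196 and 0.109), but the shMITF libraries lay below all shSCR1 libraries, and against that control it was lower, at −2.39. The Hermes 3A libraries of shSCR were at 0.616, 0.705 and 0.639 CPM and shBRG1 at 0.866, 0.416 and 0.717 CPM, with overlapping groups and a difference of 0.02 ± 0.319. With shMITF it was at 5.88, 1.33 and 1.06 CPM, where replicate 1 stood apart. The difference of 2.11 ± 0.638 missed the threshold (adjusted p = 0.0543, edgeR quasi-likelihood test). Without that replicate it was 0.90, and without replicate 2 or 3 it was called, at 2.44 and 2.49. It was also called with DESeq2 (2.11, adjusted p = 0.00473), and with edgeR using library sizes (2.16, adjusted p = 0.0449), no filter (2.10, adjusted p = 0.0344), the replicate block (1.69, adjusted p = 0.0487) or all Hermes 3A groups in 1 fit (2.11, adjusted p = 0.0244).

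LIF, the leukaemia inhibitory factor of the same family, rose with shBRG1 in both lines. In 501Mel cells it went from 0.798, 0.741 and 0.790 CPM in shSCR1 to 3.74, 4.12 and 3.04 CPM in shBRG1 (2.17 ± 0.163, adjusted p = 1.8e-11, edgeR quasi-likelihood test), and the change was 4.45 against shSCR2. In Hermes 3A cells it went from 7.67, 7.29 and 6.23 CPM to 19.8, 17.7 and 17.1 CPM (1.38 ± 0.0876, adjusted p = 8.9e-14, same test). Neither pair of groups overlapped. With shMITF the lines parted. In 501Mel cells LIF was at 1.43 and 0.464 CPM against 0.196 and 0.136 in shSCR2, higher by 2.59 ± 0.628 (adjusted p = 0.0207, edgeR quasi-likelihood test). The shMITF libraries lay on both sides of the shSCR1 libraries, the change against them was 0.29 (adjusted p = 0.564), and the call against shSCR2 was lost without shMITF replicate 1 (1.60, adjusted p = 0.113) or shSCR2 replicate 2 (2.26, adjusted p = 0.101, edgeR quasi-likelihood test throughout). In Hermes 3A shMITF it was at 5.17, 3.87 and 3.74 CPM, below all shSCR libraries, with a difference of −0.70 ± 0.215 (adjusted p = 0.0562, edgeR quasi-likelihood test).

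IL24, a cytokine first described in differentiating melanoma cells, was the most abundant of the interleukin genes in 501Mel shSCR1. It rose from 18.3, 10.7 and 10.8 CPM in shSCR1 to 88.0, 84.9 and 72.7 CPM in shBRG1 (2.55 ± 0.244, adjusted p = 4.5e-04, edgeR quasi-likelihood test), and by 6.74 against shSCR2. The groups did not overlap. In shMITF it was at 5.01 and 5.36 CPM against 0.719 and 0.722 in shSCR2, higher by 2.88 ± 0.328 (adjusted p = 9.0e-04, same test). Against shSCR1, whose libraries all lay above, it was lower at −1.34. In Hermes 3A cells IL24 was at 61.9, 57.6 and 62.7 CPM in shSCR, at 191, 98.7 and 208 CPM in shMITF and at 45.1, 49.6 and 48.7 CPM in shBRG1. It was called higher with shMITF (1.47 ± 0.248, adjusted p = 0.00656, edgeR quasi-likelihood test), and with shBRG1 the difference was −0.33 ± 0.0528 (adjusted p = 3.8e-06, same test), small though without overlap. The difference between shBRG1 and shMITF, −1.80 ± 0.259, was called (adjusted p = 0.00592, edgeR quasi-likelihood test).

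The interleukin-1 genes, whose products start many inflammatory responses, were close to absent. IL1A had 0 to 11 counts per library and passed the filter in no knockdown comparison. Its highest level was 0.225 CPM, in a shSCR1 library. IL1B was at 1.00, 0.399 and 0.439 CPM in shSCR1 and at 0.119, 0.380 and 0.197 CPM in shBRG1, lower by 1.48 in size on the log2 scale (−1.48 ± 0.397, adjusted p = 0.00192, edgeR quasi-likelihood test). Without shSCR1 replicate 1 the change was −0.92, under the threshold, and against the pooled controls it was −0.71 (adjusted p = 0.601, same test). Against shSCR2, with 0 and 2 counts, it was 3.38. In the other groups IL1B had 0 to 7 counts per library.

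CXCL8, the neutrophil chemokine interleukin-8, rose with shBRG1 in both lines. In 501Mel cells it stood at 10.7, 8.36 and 7.73 CPM in shSCR1 and at 34.1, 34.4 and 31.1 CPM in shBRG1 (1.82 ± 0.0835, adjusted p = 1.5e-15, edgeR quasi-likelihood test), and the change was 5.21 against shSCR2. The Hermes 3A level was 46.7, 47.0 and 48.6 CPM in shSCR and at 96.1, 110.6 and 105 CPM in shBRG1 (1.14 ± 0.0505, adjusted p = 2.7e-17, same test). In neither line did the groups overlap. With shMITF in 501Mel cells it was at 1.61 and 3.68 CPM against 0.588 and 0.981 in shSCR2, higher by 1.77 ± 0.482 (adjusted p = 0.0325, edgeR quasi-likelihood test). Against shSCR1, above both libraries, it was lower at −1.72. The call against shSCR2 was lost without shSCR2 replicate 1 (adjusted p = 0.067) or shMITF replicate 2 (1.00, adjusted p = 0.22, edgeR quasi-likelihood test). In Hermes 3A shMITF it was at 35.3, 12.1 and 17.3 CPM, below every shSCR library, and the difference of −1.11 ± 0.335 missed the threshold (adjusted p = 0.0532, edgeR quasi-likelihood test). It passed at −1.68 without shMITF replicate 1, the library nearest to the controls. It also passed with DESeq2 (adjusted p = 0.00595), and with edgeR using library sizes (−1.04, adjusted p = 0.0495), the filter of 10 counts per sample (−1.13, adjusted p = 0.0492), the replicate block (−1.26, adjusted p = 0.014) or all Hermes 3A groups in 1 fit (adjusted p = 0.0181).

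CXCL1, a ligand of CXCR2, was the highest of the 10 genes per kilobase in Hermes 3A shSCR and shBRG1. It stood at 240.4, 253 and 257 CPM in shSCR and at 436, 442 and 428 CPM in shBRG1, a change of 0.81 ± 0.0400 (adjusted p = 2.9e-16, edgeR quasi-likelihood test) that was far larger than the spread and short of the threshold on size. In shMITF it was at 155, 66.9 and 67.2 CPM, lower by 1.35 in size (−1.35 ± 0.309, adjusted p = 0.0213, same test). All shMITF libraries were below all shSCR libraries. The call was lost without shSCR replicate 1 (adjusted p = 0.0543), shSCR replicate 2 (0.0806), shSCR replicate 3 (0.0775) or shMITF replicate 3 (0.0667), with changes of −1.39 to −1.14, and with no filter on low counts (−1.36, adjusted p = 0.0952, edgeR quasi-likelihood test). shBRG1 exceeded shMITF by 2.16 ± 0.329 (adjusted p = 0.00735, edgeR quasi-likelihood test). In 501Mel cells the gene was at 0.0205, 0.038 and 0.0293 CPM in shSCR1 and at 0.728, 1.00 and 0.869 CPM in shBRG1. The log2 fold change was 4.70 ± 0.426 (adjusted p = 5.4e-10, edgeR quasi-likelihood test), and the ratio of pooled counts 29.3 (exact 95% interval 11.2 to 109), since the control libraries held 4 counts in all. It was 2.39 against shSCR2. In shMITF the gene had 26 and 9 counts against 5 and 11 in shSCR2, without overlap in CPM, and did not pass the filter. The ratio of pooled counts was 2.34 (exact 95% interval 1.26 to 4.54, counting error only).

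CXCL2, a close paralog of CXCL1, stayed low in both lines. It went from 0.532, 0.342 and 0.468 CPM in shSCR1 to 2.37, 2.36 and 2.37 CPM in shBRG1 (2.35 ± 0.189, adjusted p = 6.7e-11, edgeR quasi-likelihood test), and the change was nearly the same, 2.47, against shSCR2. This was the member whose 501Mel shBRG1 change depended least on the scramble group, since shSCR1 and shSCR2 (0.392 and 0.409 CPM) overlapped. In Hermes 3A cells it went from 0.822, 0.735 and 1.07 CPM to 1.54, 1.82 and 1.67 CPM (0.94 ± 0.221, adjusted p = 6.4e-04, same test), under the threshold on size and without overlap. It was called higher there without shSCR replicate 3 (1.11) and with library sizes in place of TMM (1.04). With shMITF it was at 0.529 and 0.290 CPM in 501Mel cells, on both sides of shSCR2 (0.05 ± 0.462). In Hermes 3A shMITF it was at 0.398, 0.222 and 0.477 CPM (−1.24 ± 0.411, adjusted p = 0.0726, edgeR quasi-likelihood test), below all shSCR libraries. It was called lower with all Hermes 3A groups in 1 fit (−1.25, adjusted p = 0.0171, same test). CXCL1, which shares sequence with CXCL2, averaged 250 CPM in Hermes 3A shSCR. The part of CXCL1 reads in the Hermes 3A counts of CXCL2 was not tested.

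CCL2, the monocyte chemokine, behaved unlike the CXC genes. It was at 4.01, 3.31 and 3.39 CPM in shSCR1 and at 2.12, 2.47 and 2.09 CPM in shBRG1, a difference of −0.75 ± 0.127 (adjusted p = 1.1e-05, edgeR quasi-likelihood test) without overlap and short of the threshold on size. Against shSCR2 the same libraries were higher by 2.18. With shMITF it was at 7.10 and 10.2 CPM against 0.261 and 0.572 CPM in shSCR2, the largest shMITF increase among the 10 genes (4.31 ± 0.416, adjusted p = 4.9e-04, edgeR quasi-likelihood test). The shMITF libraries were also above all shSCR1 libraries, by 1.30 (adjusted p = 3.4e-04, same test). CCL2 in Hermes 3A cells had 0 to 26 counts per library, with 0.0913, 0.411 and 0.0685 CPM in shSCR, and did not pass the filter in either knockdown comparison.

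**Figure D4:**
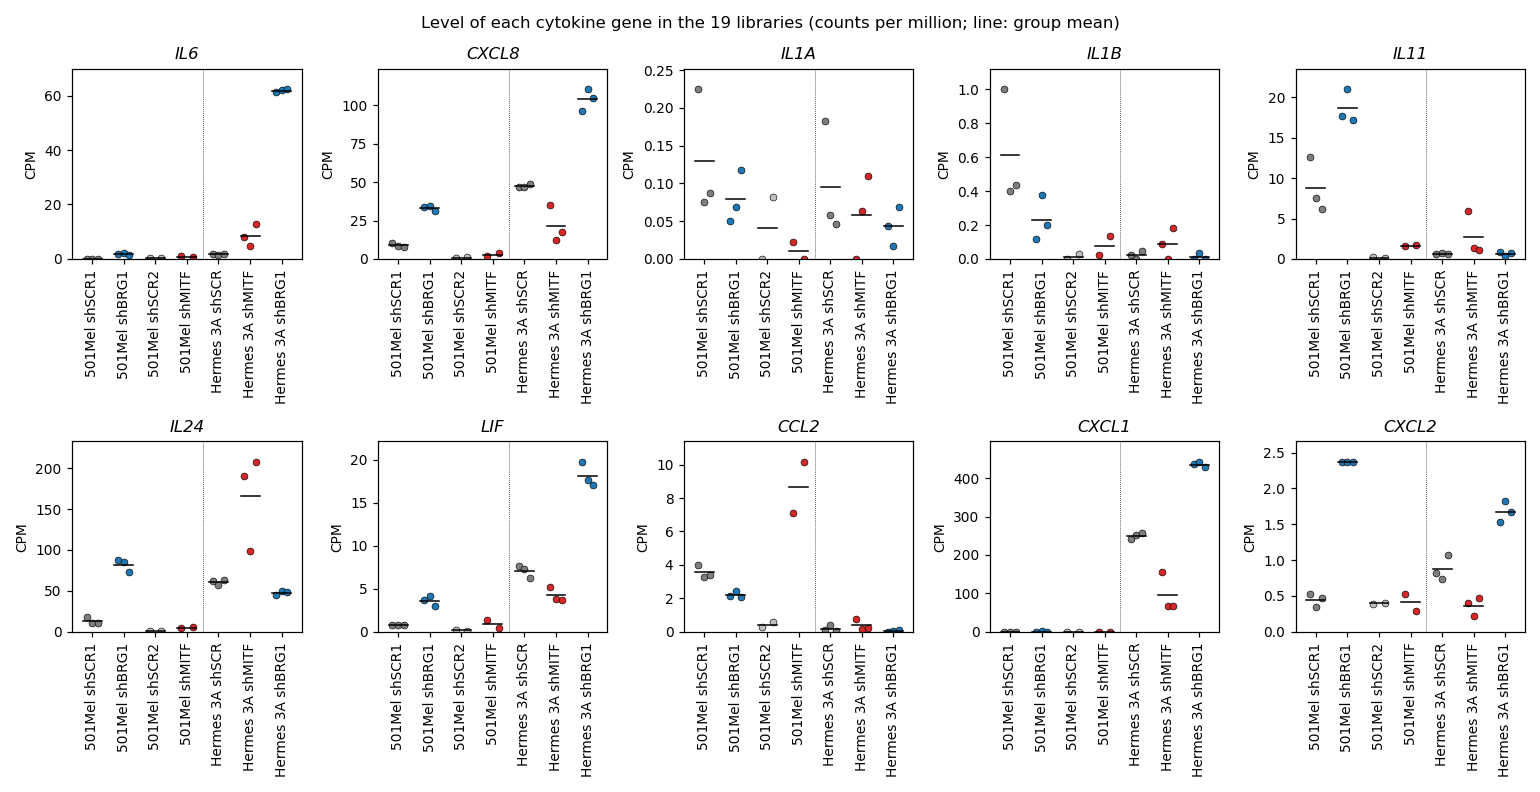
CPM (y axis, linear, a scale for each gene) of the 10 genes in the 19 libraries by group (points, libraries; horizontal lines, group means; grey, scramble; blue, shBRG1; red, shMITF; dotted line, between 501Mel and Hermes 3A). IL6 reaches 61.2 to 62.4 CPM in Hermes 3A shBRG1, CCL2 is highest in 501Mel shMITF (7.10 and 10.2 CPM), and IL24 is highest in Hermes 3A shMITF (98.7 to 208 CPM).

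**Figure D5:**
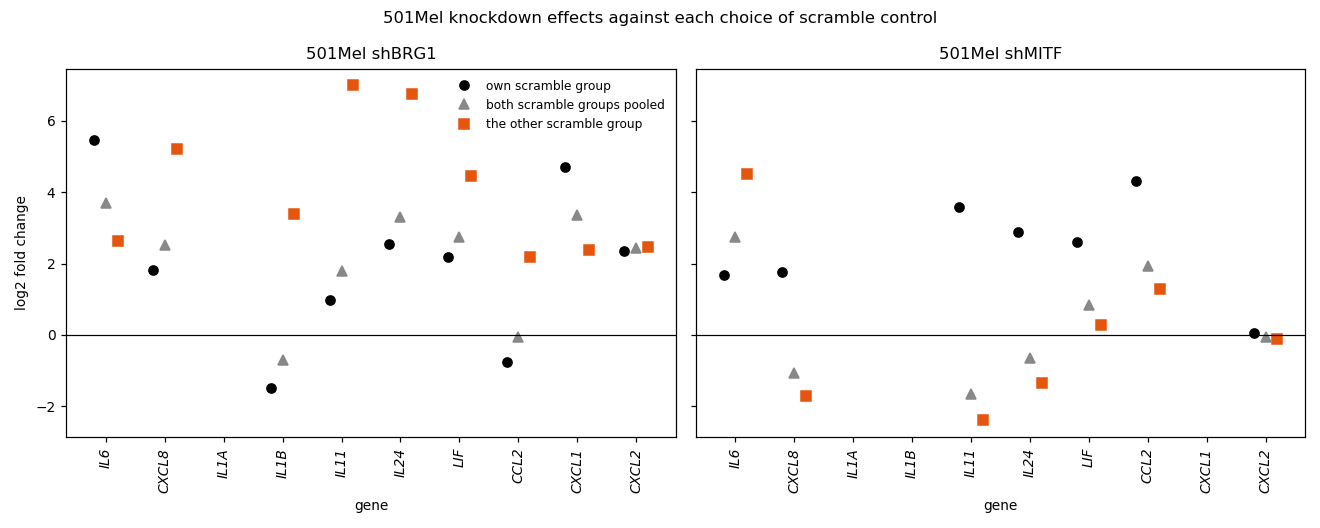
Log2 fold change (y axis) of the genes tested in 501Mel shBRG1 (left) and shMITF (right) against their own scramble group (circles), both groups pooled (triangles) and the other group (squares). For shBRG1 the signs differ between controls for IL1B and CCL2, and for shMITF they differ for CXCL8, IL11, IL24 and CXCL2, the last near 0 throughout.

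Against both scramble groups of 501Mel cells, 6 members stayed higher with shBRG1, as in the plot of fold changes by control, IL6, CXCL8, IL24, LIF, CXCL1 and CXCL2, with log2 fold changes of 2.43 to 3.69 against the pooled controls. Of all genes, 32% were called higher against shSCR2 and 20.6% against the pooled controls. With shMITF only IL6 and CCL2 were called higher against each of shSCR1 and shSCR2, and against the pooled controls 0 were called by edgeR at an adjusted p under 0.05, where 1.67% of all genes were called higher. The lowest adjusted p there was 0.203, for IL6.

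The effect of shBRG1 was then compared between the lines in 1 fit of the 12 libraries. Of 9 members tested, 3 effects were larger in 501Mel cells past both thresholds, CXCL1 by 3.85 ± 0.396, IL24 by 2.85 ± 0.254 and CXCL2 by 1.38 ± 0.309, against 26.9% of all 21697 genes whose effects differed in either direction. CXCL8 (0.65 ± 0.102) and LIF (0.76 ± 0.190) differed at an adjusted p of 1.4e-06 and 7.3e-04 (edgeR quasi-likelihood test) but by less than the threshold on size, which LIF passed with library sizes in place of TMM (1.03). Without regard to size, 57.9% of all genes differed at an adjusted p under 0.05. For IL6 the difference was 0.28 ± 0.505, and it rests on shSCR1 replicate 2, without which the 501Mel controls held 0 counts. Without shSCR1 replicate 1 or 3 it was −0.34 or −0.14. IL11 (0.96 ± 0.589) was called different without shSCR1 replicate 1 (1.31), with DESeq2 (1.04) and with no filter on low counts (1.02). The CXCL1 difference set an increase from 4 counts in all in 501Mel shSCR1 beside one from 240.4 to 257 CPM in Hermes 3A shSCR. All these differences rest on shSCR1 as the 501Mel control. Against shSCR2 the 501Mel shBRG1 changes were larger for IL11, IL24, CXCL8 and LIF and smaller for IL6 and CXCL1. They turned in sign for IL1B and CCL2 and were nearly the same for CXCL2. The difference between the lines was not tested with shSCR2.

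The effect of shMITF differed between the lines in 2 of 8 members tested, LIF (3.28 ± 0.629, adjusted p = 0.0158) and CXCL8 (2.84 ± 0.661, adjusted p = 0.0481, edgeR quasi-likelihood test), against 2.64% of all 19284 genes in either direction, or 2.99% without regard to size. Both were higher in 501Mel shMITF than in shSCR2 and below the controls in Hermes 3A shMITF. These calls rest on shSCR2 as control and on few libraries. The CXCL8 call was lost without either shSCR2 replicate, shMITF replicate 2 of 501Mel, any Hermes 3A shSCR replicate or Hermes 3A shMITF replicate 3, with differences of 2.10 to 3.31, and with no filter on low counts (2.80, adjusted p = 0.209, edgeR quasi-likelihood test). IL24 was called different with DESeq2 (1.38), with no filter (1.36) and with the replicate block (1.48), and CXCL1 (2.61) and CCL2 (3.19) with DESeq2. The LIF call was lost without either shSCR2 replicate or Hermes 3A shSCR replicate 2, with differences of 2.97 to 3.49.

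The knockdowns were compared within each line. In 501Mel cells the shBRG1 and shMITF effects, each against its own scramble control, differed in 5 of 9 members, against 27.3% of all 22255 genes. The shBRG1 effect was larger for IL6 (3.77 ± 0.773), CXCL1 (3.46 ± 0.849) and CXCL2 (2.32 ± 0.423), and the shMITF effect for CCL2 (−4.99 ± 0.349) and IL11 (−2.60 ± 0.571). The IL11 difference was lost without shSCR2 replicate 2 (−2.09, adjusted p = 0.141, edgeR quasi-likelihood test), and IL1B (−3.47 ± 1.47) was called without shBRG1 replicate 2 or shMITF replicate 1, with DESeq2 (−3.58) and with no filter on low counts (−3.46). These differences contain the difference between the scramble groups. For IL11 the order turned when both knockdowns were set against the same control. Its shBRG1 and shMITF changes were 0.99 and −2.39 against shSCR1, and 6.99 and 3.59 against shSCR2. The shBRG1 effects of IL6 and CXCL1 rest on 5 and 4 counts in all in shSCR1. IL6 averaged 1.79 CPM in shBRG1 and 0.879 CPM in shMITF. In Hermes 3A cells both knockdowns share the shSCR group, but the shMITF libraries listed 34033 genes and the shBRG1 libraries 42224, so that a difference in processing and a difference between the knockdowns cannot be told apart. There 6 of 7 members differed, against 5.81% of all 16927 genes. IL6, CXCL8 (2.25 ± 0.358), CXCL2 (2.18 ± 0.346), CXCL1 and LIF (2.08 ± 0.178) were higher in shBRG1, and IL24 was lower. The CXCL2 call was lost without shBRG1 replicate 2 or 3 (2.12 and 2.19, adjusted p = 0.0566 and 0.0515, edgeR quasi-likelihood test). For IL11 the difference was −2.08 ± 0.681 (adjusted p = 0.0824, edgeR quasi-likelihood test), and it was called with DESeq2 (−2.07), with the replicate block (−1.73) and with all Hermes 3A groups in 1 fit (−2.08).

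The counts in each gene list that follow are to be read beside the shares of all genes called higher and lower, which were 21.7% and 17.4% in 501Mel shBRG1, 5.59% and 3.4% in 501Mel shMITF, 5.78% and 3.47% in Hermes 3A shBRG1, and 3.35% and 4.04% in Hermes 3A shMITF. Against the other scramble group they were 32% and 20.1% for 501Mel shBRG1 and 12.2% and 17.6% for 501Mel shMITF.

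The receptors of these cytokines, a list of 16 genes, moved in both directions. Of 10 tested in 501Mel shBRG1, 3 rose and 4 fell. IL6R, the ligand-binding chain for IL-6, fell by 2.14 (185 ± 2.15 CPM to 44.0 ± 1.95, SD, n = 3 each) and IL1RAP, the accessory chain of the IL-1 receptor, fell by 2.36. IL20RB, a receptor chain for IL-24, rose by 2.49 and IL22RA1, another, fell by 4.29. IL22RA1, with 12 counts in all in shBRG1, passed the filter only through shSCR1 and could only be called lower. In 501Mel shMITF 1 of 8 rose (IL1R1, by 2.38, from 6 counts in shSCR2 to 30) and 1 fell (IL1RAP, by 1.01). Against the other scramble group, 4 rose and 3 fell of 9 tested with shBRG1, where IL22RA1 did not pass the filter, and 0 rose and 3 fell of 9 with shMITF, where IL1R1 was at 0.17. In Hermes 3A shBRG1 OSMR, the oncostatin M receptor, rose by 1.17 and IL11RA, the IL-11 receptor, fell by 1.19, and in shMITF IL1RAP fell by 1.39 and IL11RA by 1.30, the only called among 8 tested in each. The list medians with shBRG1 were −0.18 in 501Mel and −0.14 in Hermes 3A cells, beside 0.05 and 0.01 over all genes, and with shMITF they were −0.38 and −0.69, beside 0.01 and 0.05.

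Cytokine genes that neighbour the members were mostly too low to test. Of 22, 7 were tested in 501Mel shBRG1, and 4 rose and 1 fell. IL36RN, an antagonist of the IL-36 receptor, rose by 5.48 from 2 counts in shSCR1 to 134, IL36B by 4.23 from 2 counts to 56, CXCL3 by 2.88 and CCL13 by 1.79. IL36RN, IL36B and CCL13 passed the filter only through the shBRG1 libraries and could only be called higher. CXCL3, in the same cluster as CXCL1 and CXCL2, went from 0.246 ± 0.0354 to 1.94 ± 0.106 CPM (SD, n = 3 each). In 501Mel shMITF IL10, which lies in the IL24 cluster, rose by 3.32 against shSCR2 (0.252 ± 0.106 to 2.28 ± 1.42 CPM, SD, n = 2 each), 1 of 2 tested. With the scramble groups exchanged, all 6 tested rose with shBRG1, while with shMITF 1 of 4 rose, IL10, and 2 fell. In each Hermes 3A comparison CXCL3 was the 1 gene tested, and it was not called, with medians of 0.74 and −0.50 that are its own log2 fold changes with shBRG1 and shMITF.

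Of 27 other secreted inflammatory factors, 14 were tested in 501Mel shBRG1, and 4 rose and 0 fell. These were IL32 (5.41), IL12A (3.26), CCL20 (2.41) and IL15 (1.8), all below 3 CPM. IL32 and IL12A, with 8 counts each in shSCR1, could only be called higher. In Hermes 3A shBRG1 5 of 15 rose and 3 fell. The chemokines CXCL11 (3.90), CXCL12 (3.29) and CXCL10 (2.23) rose, each to less than 3 CPM on average, and TNFSF15 fell by 2.21. CXCL11 and CXCL10, with 7 and 24 counts in all in shSCR, passed the filter only through the shBRG1 libraries. Both could only be called higher, and they count in the 5. CXCL12 had 32 counts in shSCR. With shMITF in Hermes 3A cells 2 of 12 rose and 3 fell. CXCL14 rose by 3.89 (1.48 ± 0.0826 to 21.6 ± 14.7 CPM, SD, n = 3 each) and CLCF1, a gp130 ligand, by 2.24, while TNFSF15 fell by 3.23 and IL33 by 2.59. In 501Mel shMITF CXCL14 was the 1 of 9 that rose, by 5.17. It went from 6 counts in shSCR2 to 211, at 2.08 ± 2.13 CPM in shMITF (SD, n = 2), a spread as wide as the mean. Against the other scramble group 9 of 15 rose and 0 fell with shBRG1, and 0 of 13 rose and 6 fell with shMITF, where CXCL14 was at 1.60 (adjusted p = 0.0646, edgeR quasi-likelihood test). The list medians were 0.41, 0.22, 0.03 and −0.04 in 501Mel shBRG1, Hermes 3A shBRG1, Hermes 3A shMITF and 501Mel shMITF.

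In the NF-κB pathway 24 of 25 genes were tested in 501Mel shBRG1, and 6 rose and 1 fell. TRAF1, an NF-κB-inducible adaptor, rose by 3.87 and NFKBIA, which encodes the inhibitor IκBα, by 2.00 (7.46 ± 0.599 to 31.3 ± 1.95 CPM, SD, n = 3 each), while TNFAIP3, a feedback inhibitor, fell by 1.39 from 563 ± 8.47 to 225 ± 2.02 CPM. IRAK2, a kinase of IL-1 and Toll-like receptor signalling, rose by 1.67. In 501Mel shMITF 2 of 23 rose, TRAF1 (3.34, from 7 counts in shSCR2 to 68) and IRAK2 (2.97, from 11 to 74), and NFKBIZ fell by 1.09. With the scramble groups exchanged, 8 of 23 rose and 1 fell with shBRG1, where TNFAIP3 was at 0.08, and 3 of 24 rose and 3 fell with shMITF, where TRAF1 was at 0.48. In each Hermes 3A comparison 2 of 24 rose and 0 fell, the same genes, BCL3 and TRAF1, by 1.61 and 1.07 with shBRG1 and by 2.16 and 2.09 with shMITF. BCL3 encodes an atypical IκB protein. The list medians with shBRG1 were 0.46 in 501Mel and 0.14 in Hermes 3A cells, and with shMITF 0.22 and 0.21.

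In the JAK-STAT and C/EBP list of 17 genes, 16 were tested in each comparison. In 501Mel shBRG1 3 rose and 6 fell, with a median of −0.64. SOCS2 (2.20), the kinase gene PIM1 (1.83) and SOCS1 (1.68) rose, and the phosphatase gene PTPN11 fell by 1.92. In 501Mel shMITF 3 rose and 0 fell, CEBPD (2.44), SOCS2 (1.92) and BCL6 (1.32). Against the other scramble group 5 of 17 rose and 4 fell with shBRG1, where SOCS2 was at 0.29, and 3 of 16 rose and 5 fell with shMITF, where BCL6 fell by 1.64. In Hermes 3A shBRG1 3 rose and 0 fell, CEBPD (1.92), SOCS2 (1.09) and SOCS3 (1.08), the last a STAT3-induced feedback inhibitor of gp130 signalling. CEBPD, which encodes C/EBPδ, went from 9.26 ± 0.955 to 34.9 ± 0.902 CPM there and to 34.3 ± 4.03 CPM with shMITF (SD, n = 3 each). With shMITF in Hermes 3A cells CEBPD (1.91) and BCL6 (1.05) rose. The medians in the last 3 were 0.35, 0.22 and −0.07.

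Of 12 genes of the inflammasome and IL-1 processing, 7 were tested in 501Mel shBRG1, and 1 rose and 4 fell. CASP1, the protease that matures IL-1β, fell by 3.74 to 5 counts in all. It passed the filter only through shSCR1 and could only be called lower. CAPN1 fell by 1.36 and GSDMD, the pore-forming gasdermin, by 1.06, while NLRC4 rose by 2.75. In Hermes 3A shBRG1 CASP1 fell by 1.26 (29.2 ± 1.61 to 12.1 ± 1.14 CPM, SD, n = 3 each) and AIM2 by 2.06, 2 of 10 tested. With shMITF in Hermes 3A cells AIM2 fell by 2.26, 1 of 10, and in 501Mel shMITF AIM2 fell by 5.75 and CASP4 rose by 1.03 among 7. In 501Mel cells AIM2 had 85 counts in shSCR2 (0.665 ± 0.524 CPM, SD, n = 2) and 1 in shMITF, and could only be called lower. With the scramble groups exchanged, 4 of 8 rose and 2 fell with shBRG1, where GSDMD rose by 1.27 and CASP1 did not pass the filter, and 0 of 8 rose and 3 fell with shMITF, where CASP4 was at 0.57 and AIM2 did not pass the filter. The medians were −1.02 in 501Mel shBRG1, −0.07 in Hermes 3A shBRG1, −0.04 in Hermes 3A shMITF and 0.48 in 501Mel shMITF.

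Markers of other cell types moved in places. Among fibroblast markers 4 of 6 tested were higher in 501Mel shBRG1 and 1 was lower, beside 21.7% and 17.4% of all genes, and against shSCR2 3 of 6 were higher and 0 lower. COL3A1 and PDGFRA, with 1 and 21 counts in all in shSCR1, passed the filter only through the shBRG1 libraries. Both could only be called higher, and they count in the 4. FAP averaged 3.92 CPM in shSCR1 and 1.41 CPM in shBRG1. The sum of the list went from 6.91 to 9.46 CPM in shSCR1 to 17.8 to 20.7 CPM. Of 5 tested in Hermes 3A cells, 2 were called higher in each comparison, COL1A2 (1.06 with shBRG1, 1.10 with shMITF) and PDGFRA (2.04 and 2.14), and the sum of the 7 was 382 to 410 CPM in shSCR, 413 to 422 CPM in shBRG1 and 393 to 603 CPM in shMITF. The sum of leukocyte markers was 2.58 to 4.38 CPM in shSCR1 and 8.11 to 9.44 CPM in 501Mel shBRG1, with all 7 detected, and 0.658 to 1.59 CPM in Hermes 3A cells. In 501Mel shBRG1, 1 of 3 keratinocyte markers tested rose (TP63). Of 4 endothelial markers 1 rose (TEK) and 2 fell (CDH5 and KDR). Against shSCR2, 1 of 3 and 2 of 4 rose and 0 fell. TP63 and TEK, with 8 and 1 counts in all in shSCR1, could only be called higher there. CDH5, with 19 counts in shBRG1, could only be called lower against shSCR1. No keratinocyte or endothelial marker was called in the other knockdown comparisons, but against shSCR1 2 of 3 endothelial markers fell with shMITF. In 501Mel shMITF, 1 of 3 leukocyte markers rose, LYZ (3.46, from 18 counts in shSCR2 to 195), and 1 of 4 fibroblast markers, COL1A1 (1.71). Against shSCR1 LYZ was at 3.24 and COL1A1 at 0.20, and of 5 leukocyte markers 1 rose and 3 fell. The leukocyte sum was 0.886 to 1.18 CPM in shSCR2 and 2.03 to 3.56 CPM in 501Mel shMITF. In Hermes 3A shBRG1 the leukocyte sum (0.658 to 0.823 CPM) was below that of shSCR (0.881 to 1.00 CPM). The fibroblast sum there was above that of shSCR. The part of other cell types in the cytokine changes was not tested.

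The genes most like 3 of the members over the 7 groups were sought among 13965 genes with a mean of at least 1 CPM, by the root mean square difference of centred group means of log2(CPM + 0.5). For IL6 they were INA (0.83), GBP1 (0.88) and TCERG1L (0.94). GBP1, an interferon-inducible GTPase gene, averaged 7.64 CPM in Hermes 3A shSCR and 38.4 CPM in shBRG1. For CXCL8 they were PLA2G4C (0.68), DYSF (0.75) and BAIAP2L2 (0.76), and for CCL2 they were GFPT2 (0.46), KLC3 (0.47) and TDO2 (0.47). TDO2 averaged 4.54 CPM in 501Mel shMITF, 0.662 in shSCR2 and 1.56 in shSCR1. The likeness is a description over 7 group means that share a line or a control.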

How the data were processed

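RNA-seq of 19 libraries from 2 human pigment cell lines was analysed. Per the labels, ribosomal RNA was depleted and the cDNA was treated with a duplex-specific nuclease, a step that lowers abundant cDNAs and so can compress their levels. The authors deposited 1 table of raw counts per gene for each library. The submitters' processing notes name CASAVA 1.8, TopHat 1.4.1, Bowtie 0.12.7 and build hg19. The counting program, its annotation and its use of strand are not given in the sources used here. No per-sample column was left unused.

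Groups were taken from the labels. Members were matched by symbol to Ensembl identifiers. Gene positions, exon lengths and overlaps were taken from GENCODE 29 (GRCh38) by Ensembl identifier, and promoters from RefSeq (GRCh38.p14), since the counts carry no coordinates. Counts were filtered with edgeR's filterByExpr, normalized by TMM and tested with edgeR 4.0.16 in R 4.3.3, by the quasi-likelihood test with Benjamini-Hochberg adjustment over all genes tested and the libraries of the groups compared. Differences between effects were tested as interaction terms. The procedure was tested on simulated data. Ratios of pooled counts have exact (Clopper-Pearson) 95% intervals. Intervals cover counting error only. Tables were made in Python 3.11.15 with scipy 1.17.1, pandas 2.3.3 and numpy 2.4.6, and plots with matplotlib 3.10.9.

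All 10 members and both targeted genes were named, with up to 4 genes per list and comparison with the largest absolute log2 fold change among those called, and 3 genes most like IL6, CXCL8 and CCL2. Of the cell type markers only some of those called were named. A gene of the lists is not reported here. The members and lists were chosen with earlier results of these data known. The alternatives were library sizes in place of TMM, DESeq2 1.42.0, no filter or at least 10 counts in every sample, no threshold on fold change, a replicate block, other sets of samples or controls, and each replicate left out. The other scramble group as the control was added after seeing the data. No library was a repeat deposit of another of its group by a chi-square comparison of counts. Libraries of different groups were not compared in this way.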

Additional observations from a re-analysis of the deposited data

Results flagged for a closer look

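In 7 instances the effect of a knockdown differed between 501Mel and Hermes 3A cells by the interaction test of edgeR at an adjusted p under 0.05. Groups of 2 or 3 libraries were too small for a test of single outlying libraries.

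For shBRG1, 5 effects were larger in 501Mel cells. Of all genes tested, 57.9% differed in either direction by the same test, and 26.9% differed past the threshold on size too, which 3 of the 9 members did. CXCL1 differed by 3.85 on the log2 scale, with 4.70 in 501Mel cells and 0.81 in Hermes 3A cells. IL24 differed by 2.85, with 2.55 and −0.33, and it was the 1 of the 5 whose values had opposite signs in the lines. CXCL2 differed by 1.38, with 2.35 and 0.94. LIF differed by 0.76, with 2.17 and 1.38, and CXCL8 by 0.65, with 1.82 and 1.14, both short of the threshold on size. These sizes depend on shSCR1 as control. Against shSCR2 the 501Mel changes of IL24, LIF and CXCL8 were larger, that of CXCL1 was smaller and that of CXCL2 was nearly the same.

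For shMITF, 2 effects differed, beside 2.99% of all genes by the same test, and both had opposite signs in the lines. LIF differed by 3.28, with 2.59 in 501Mel cells against shSCR2 and −0.70 in Hermes 3A cells. CXCL8 differed by 2.84, with 1.77 and −1.11. The 501Mel values of both depend on the scramble group, and against shSCR1 they were 0.29 and −1.72. The part of the medium, the scramble vector and the lists of genes that differed between files was not tested.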

How the results depend on the processing

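The p-values rest on 2 or 3 libraries a group, and IL1A, IL1B, CCL2 in Hermes 3A and IL6 and CXCL1 in 501Mel shSCR1 were at counts too low for a precise fold. Over all alternatives in the 4 knockdown comparisons, 340 results kept their direction and side of the threshold, 28 passed it, 18 lost it and 15 reversed. With a replicate left out, the numbers were 146, 5, 11 and 4. Where a cause is not named, the cause was not tested.

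In 501Mel shBRG1 0 were called lower when every sample had to hold at least 10 counts, 0 with pooled controls, 0 against shSCR2, 2 with no threshold on size and 0 to 1 with a replicate left out. Against shSCR2, IL1B was at 3.38 and CCL2 at 2.18. Library sizes in place of TMM moved the median of all genes by 0.35, and the genes called were 6192 higher and 2398 lower in place of 4453 and 3571. The shift was 0.26 between the lines, 0.27 and 0.22 in the shBRG1 interactions with line and with shMITF, and −0.14 between the scramble groups, and the direction of no member turned with it.

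In 501Mel shMITF the number called higher was 3 with at least 10 counts, 0 with pooled controls and 2 against shSCR1, where 4 were lower. With pooled controls and against shSCR1, CXCL8 was at −1.06 and −1.72, IL11 at −1.65 and −2.39, IL24 at −0.64 and −1.34 and CXCL2 at −0.05 and −0.11. CXCL2 ranged from −0.41 to 0.40 with a replicate left out.

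In Hermes 3A shBRG1, with no threshold on size, 5 were higher and 1 was lower, and IL11 ranged from −0.22 to 0.29 with a replicate left out. In Hermes 3A shMITF the number lower was 2 with library sizes, 2 with DESeq2, 2 with at least 10 counts, 0 with no filter, 3 when the line's groups were fitted jointly and 0 to 2 with a replicate left out. In shBRG1 against shMITF it was 2 with DESeq2 and 2 when the line's groups were fitted jointly.

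Between the scramble groups the number higher was 2 with no filter, 0 with at least 10 counts, 2 with all 501Mel groups in 1 fit and 0 to 1 with a replicate left out, the number lower was 2 with at least 10 counts, and CXCL2 ranged from −0.34 to 0.01. Between the lines, with at least 10 counts 1 was higher and 3 were lower, and with shSCR2 in place of shSCR1 0 were higher and IL11 was at −2.22.

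For the shBRG1 interaction with line, 5 were higher with no threshold on size, and with a replicate left out IL6 ranged from −0.34 to 4.16, the upper end against controls with 0 counts and set by the prior count, IL1B from −1.61 to 1.88 and CCL2 from −0.58 to 1.30. For the shMITF interaction, 5 were higher with DESeq2, 1 with at least 10 counts and 0 to 5 with a replicate left out, 5 without Hermes 3A shMITF replicate 1. For shBRG1 less shMITF in 501Mel cells, with at least 10 counts 1 was higher and 0 were lower. With a replicate left out the number lower was 1 to 3, CXCL8 ranged from −0.39 to 0.93, IL24 from −0.44 to 0.01 and LIF from −0.99 to 0.55.

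The replicate numbers are shared between groups, and the deviations of same-numbered libraries correlated at −0.028 to 0.095. With 2 or 3 libraries a group, these correlations cannot show whether same-numbered libraries were made together. With the replicate block, 2 members were lower in Hermes 3A shMITF and 2 in Hermes 3A shBRG1 against shMITF, and CXCL2 in 501Mel shMITF was at −0.01.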
